A study of Mus musculus with 6 samples.

Results

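The claudin and tight junction genes described here are 9 of the 18193 genes measured on 6 Affymetrix mouse arrays. They were matched by gene symbol, and each gene was read from its brightest probe set, that is the one of highest mean on the 6 arrays. All 9 were found, namely Cldn1, Cldn2, Cldn3, Cldn4, Cldn7, Cldn12, Ocln, F11r and Tjp1. The RNA came from NMuMG cells, an immortalised line of normal mouse mammary gland epithelium, grown in medium with serum and insulin. Control cells received vehicle, cells of the next group received TGF-β at 4 ng/ml for 11 days, and those of the last group received the same and were then kept for another 13 days without it. TGF-β is a cytokine that drives epithelial cells of this line towards a mesenchymal state, and the design asks how far that state is left when the cytokine is removed. Each group had 2 arrays. All groups share 1 line and 1 medium, and the labels name no separate cultures behind the 2 arrays of a group. The p-values then measure only the spread between such samples, and this spread may be technical. The withdrawn cells were also kept longer in culture than the others, and the effect of this extra time cannot be told apart from that of withdrawal.

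Tight junctions seal the space between neighbouring epithelial cells near their apical side and set which ions and solutes pass between the cells. Claudins span the membrane and form the sealing strands, and some of them, such as claudin-2, form channels that let cations and water through. Occludin and the junctional adhesion molecules lie in the same membrane domain, and ZO-1, encoded by Tjp1, ties these proteins to the actin cytoskeleton from the inner side.

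The promoters of the genes with the widest differences are shown because Ocln and Cldn2 moved one way and Cldn4 the other, and because repressors of the Snail and Zeb families, known in this transition, bind the E2-box CAGGTG. Each window runs from 250 bases before to 50 after a RefSeq transcription start (GRCm38.p6), read 5′ to 3′ on the gene's strand, and capitals mark each E2-box (CAGGTG, or CACCTG on the other strand).
Cldn2, chrX:139800558-139800857, plus strand: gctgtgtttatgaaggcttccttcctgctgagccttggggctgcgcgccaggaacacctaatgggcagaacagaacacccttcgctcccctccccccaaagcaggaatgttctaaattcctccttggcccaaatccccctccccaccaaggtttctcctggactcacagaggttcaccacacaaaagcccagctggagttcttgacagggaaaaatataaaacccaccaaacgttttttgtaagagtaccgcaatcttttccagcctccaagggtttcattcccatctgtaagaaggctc
Ocln, chr13:100552449-100552748, minus strand: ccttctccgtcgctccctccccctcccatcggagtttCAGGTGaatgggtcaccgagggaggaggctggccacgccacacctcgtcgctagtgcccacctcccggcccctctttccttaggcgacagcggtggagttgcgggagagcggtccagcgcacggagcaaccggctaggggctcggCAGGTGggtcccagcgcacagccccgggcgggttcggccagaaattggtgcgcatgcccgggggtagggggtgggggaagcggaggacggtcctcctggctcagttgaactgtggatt
Cldn4, chr5:134946885-134947184, minus strand: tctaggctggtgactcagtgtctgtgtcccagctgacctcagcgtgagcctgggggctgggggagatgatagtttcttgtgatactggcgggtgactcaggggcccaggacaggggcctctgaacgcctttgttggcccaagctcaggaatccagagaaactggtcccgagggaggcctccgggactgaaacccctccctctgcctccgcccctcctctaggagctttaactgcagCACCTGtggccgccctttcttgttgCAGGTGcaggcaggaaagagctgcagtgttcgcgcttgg
The Cldn2 window held 0 E2-boxes, the Ocln window printed here 2 and the Cldn4 window 2. Another Ocln window, chr13:100552669-100552968, overlaps the printed one and held 1. That site is the first E2-box of the printed window, so it is in both Ocln windows counted below. Over all 13 annotated windows of the 9 genes, 6 windows of 5 genes held one (Cldn3, Cldn4, Cldn7, F11r and Ocln), against 20.2% of all 32851 windows of this length and 22.6% of genes. Of these 5 genes, 1 rose (Cldn4), 2 fell (Ocln and F11r) and 2 were not called (Cldn3 and Cldn7) under TGF-β. Among the members without an E2-box, Cldn2 and Tjp1 fell and Cldn1 and Cldn12 were not called. Over all genes 15.0% were called higher and 17.5% lower. A link between the E2-box and the direction was not tested. The AP-1 motif TGANTCA, which reads the same on both strands, was present 2 times in the Cldn4 window and once in that of F11r, and in 7.81% of all windows. AACCGGTT, bound by the Grainyhead-like factors of epithelia, was in 0 of the 13 windows and in 0.146% of all. A match describes letters in the window and shows no binding.

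The values are RMA expression values on the log2 scale, which set all arrays to a common distribution, and every change below is relative to that common level. Array medians over probe sets were 5.77 to 5.79, and arrays of a group differed by a median of 0.0783 to 0.0935. In further settings each array of these RMA values was shifted by a constant, so that the spike means of all arrays were equal. The spike readings had themselves passed through RMA, which limits these settings. Arrays of a group also differed in them, with poly-A means of 8.10 and 7.83 in control and hybridization means of 11.35 and 11.17 after withdrawal. With poly-A spikes the median of all genes moved to -0.27 for TGF-β against control, 0.11 for withdrawal against TGF-β and -0.16 for withdrawal against control. With hybridization spikes it moved to -0.17, -0.25 and -0.42. The test described below called 2726 genes higher and 3175 lower under TGF-β against control, which became 903 and 5089 with poly-A spikes and 1319 and 4408 with hybridization spikes. On withdrawal against TGF-β, 3960 were higher and 4023 lower (3672 and 1624, and 2146 and 7772), and for withdrawal against control 3943 and 4292 (2136 and 3712, and 1655 and 12634). Of 4 epithelial markers, 3 fell under TGF-β, 1 was higher (Cdh1) and 2 lower (Krt8 and Epcam) on withdrawal against TGF-β, and 2 were lower after withdrawal than in control. The keratin genes Krt8 and Krt18 read at least 13.36 and 13.74 on every array, and the E-cadherin gene Cdh1 read 11.99 and 11.89 in control, 8.37 and 8.25 under TGF-β and 11.80 and 11.79 after withdrawal. Of 8 endothelial markers only Cdh5 was called, by -0.26 under TGF-β (adjusted p = 0.0495), and of 6 leukocyte markers only Cd68, at 1.05 on withdrawal against TGF-β and 0.88 against control. On a log2 scale the summed level of the epithelial markers was 15.44 in control, 14.69 to 14.71 under TGF-β and 14.78 after withdrawal, that of the endothelial markers was 8.27 to 8.28 in control, 8.27 to 8.38 under TGF-β and 8.23 after withdrawal, and that of the leukocyte markers 8.22 to 8.31, 8.25 to 8.39 and 8.44 to 8.46. Their part in the results was not tested. A further label field gives the treated groups opposite state names, and groups here follow the sample titles and treatment entries.

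Under TGF-β, 4 of the 9 genes fell and 1 rose, and 4 were not called. Cldn2 and Ocln fell most, with log2 differences of -2.87 and -3.29, Tjp1 and F11r fell with -0.75 and -0.40, and Cldn4 rose by 4.43. After withdrawal, 4 genes were higher than under TGF-β (Cldn2, Ocln, F11r and Tjp1) and 2 were lower (Cldn4 and Cldn12). Calls are those of the limma test at an adjusted p under 0.05 (Benjamini-Hochberg over all genes), which called 32.4% of all genes under TGF-β, 15.0% higher and 17.5% lower. The same test called 43.9% on withdrawal against TGF-β (21.8% higher and 22.1% lower) and 45.3% for withdrawal against control (21.7% and 23.6%). The median difference of the 9 genes was -0.065 under TGF-β, against -0.011 over all genes, 0.13 on withdrawal against TGF-β, against -0.033, and 0.047 for withdrawal against control, against -0.042. The arrays of both groups did not overlap for 6 of the 9 genes under TGF-β, against 64.9% of all genes, for 7 on withdrawal against TGF-β, against 69.0%, and for 6 between withdrawal and control, against 70.5%, so these shares were near the background. Each pair of comparisons shares a group of arrays, and the values of a gene in them are therefore given side by side.

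**Figure D1:**
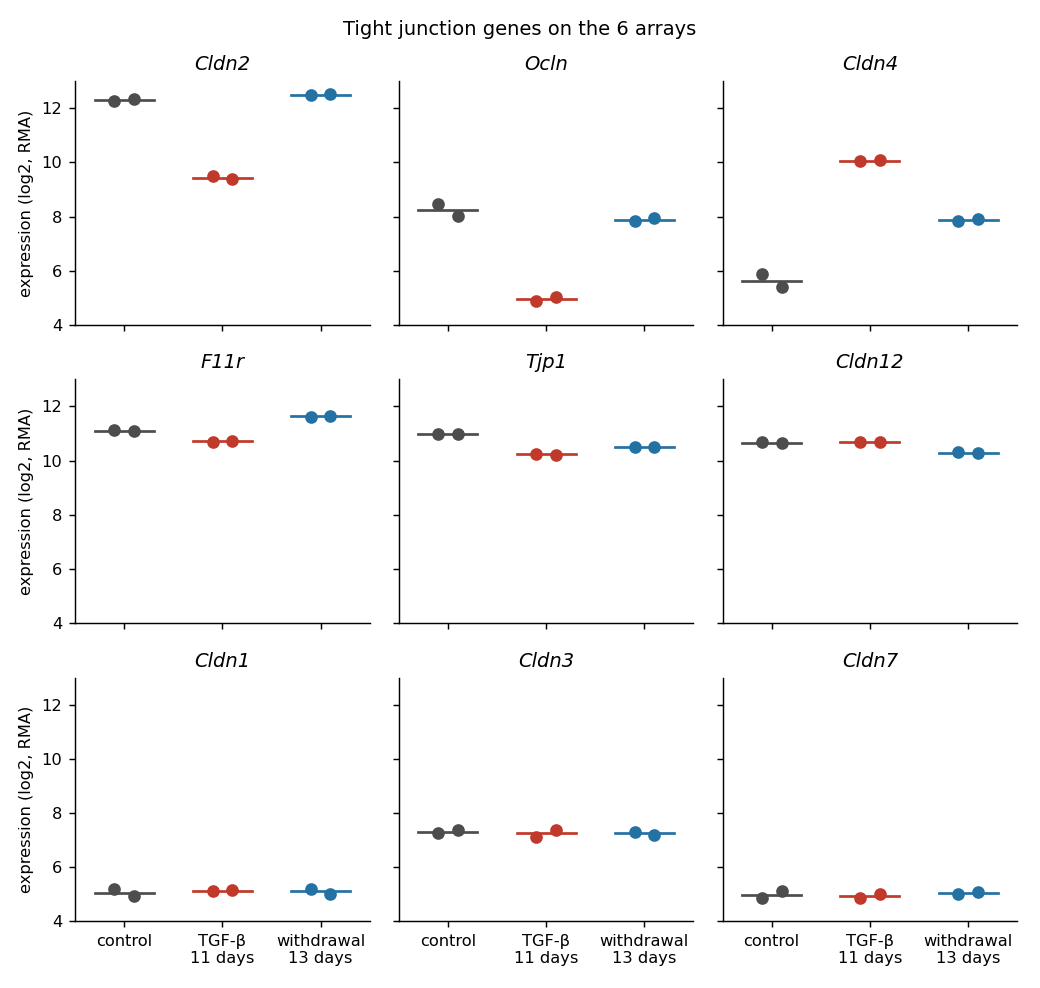
Expression of the 9 tight junction genes on each array (log2, RMA; 1 panel per gene, 1 point per array, line at the mean of the 2 arrays). Cldn2 and Ocln are lowest under TGF-β, Cldn4 is highest under TGF-β and stays above control after withdrawal, and Cldn1, Cldn3 and Cldn7 lie at similar values in all groups.

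Among the claudins, Cldn2, which encodes the cation and water channel of leaky epithelia, read 12.27 and 12.32 on the control arrays, 9.48 and 9.37 under TGF-β and 12.48 and 12.51 after withdrawal. The TGF-β arrays were far below the other 4, with no overlap. The difference was -2.87 ± 0.060 (SE), a 7.31-fold lower level, with an adjusted p of 2.79e-06 in the limma test, and the rise on withdrawal was 3.07 ± 0.060, with an adjusted p of 2.45e-06. The withdrawal arrays were 0.20 above control (adjusted p = 0.0395 in limma). That small difference lost its call without any one array of either group (adjusted p = 0.0902 to 0.166) and turned to -0.18 with hybridization spike scaling. Where an array is left out, here and below, the lone array of its group has no spread of its own and is assumed to vary like the other groups.

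Cldn4, which encodes a claudin that tightens the junction against cations and serves with claudin-3 as a receptor of a clostridial toxin, moved the opposite way. It read 5.88 and 5.39 in control, 10.06 and 10.07 under TGF-β and 7.83 and 7.92 after withdrawal. The 3 groups did not overlap, and their order was control, withdrawal and TGF-β from low to high. The rise was 4.43 ± 0.15 (SE), or 21.6-fold, with an adjusted p of 1.13e-05, and the difference on withdrawal was -2.19 ± 0.15 with an adjusted p of 0.000101 in limma. After withdrawal Cldn4 still stood 2.24 ± 0.15 above control, or 4.73-fold (adjusted p = 8.24e-05 in limma). The control readings lay near the array medians, and no detection calls were used here that would separate them from background. All 3 differences of Cldn4 kept their direction and their call in the 16 alternative settings run.

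In the RefSeq gene order Cldn4 and Cldn3 are neighbours on chromosome 5 with 0 genes between them. Cldn3, which encodes a barrier-forming claudin, read 7.25 and 7.37 in control, 7.13 and 7.37 under TGF-β and 7.30 and 7.21 after withdrawal. The arrays of all groups overlapped. Its difference under TGF-β was -0.059 with a 95% confidence interval from -0.30 to 0.18, an interval that does not reach the difference of Cldn4.

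Cldn1 and Cldn7, which encode sealing claudins of skin and other tight epithelia, were low on every array. Cldn1 read 4.93 to 5.19 and Cldn7 4.85 to 5.11 over the 6 arrays, below the array medians. The TGF-β difference was 0.080 for Cldn1, with a 95% interval from -0.18 to 0.34, and -0.065 for Cldn7, with an interval from -0.31 to 0.18. On withdrawal against TGF-β the differences of Cldn1, Cldn3 and Cldn7 were -0.032, 0.0030 and 0.13, and against control 0.047, -0.056 and 0.069, with no call in limma (adjusted p from 0.334 to 0.985). Without detection calls, a low value here does not tell a silent gene from a weakly expressed one. With hybridization spike scaling, which lowers all genes of the withdrawal arrays, Cldn1, Cldn3 and Cldn7 passed as lower after withdrawal than in control, at -0.33, -0.43 and -0.31.

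Cldn12, which encodes a claudin without the usual C-terminal PDZ-binding motif, was called lower in both comparisons with the withdrawal arrays and was not called under TGF-β. It read 10.68 and 10.65 in control, 10.69 and 10.69 under TGF-β and 10.30 and 10.27 after withdrawal. Control and TGF-β arrays lay within 0.022 of each other on average, with a 95% interval from -0.097 to 0.14, and the withdrawal arrays lay below all 4. The difference was -0.40 ± 0.048 (SE) from TGF-β and -0.38 ± 0.048 from control, with adjusted p of 0.000950 and 0.00115 in limma. Scaled to poly-A spikes, the difference of Cldn12 from TGF-β was -0.26 and lost its call (adjusted p = 0.273).

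Ocln, which encodes occludin, a membrane protein of the strands that helps to regulate the barrier, read 8.46 and 8.04 in control, 4.89 and 5.03 under TGF-β and 7.83 and 7.95 after withdrawal. The TGF-β arrays lay far below the rest and under the array medians, at a level not shown to be above background, so the fold below describes the readings and may understate the change in RNA. The difference was -3.29 ± 0.14 (SE), or 9.77-fold lower, with an adjusted p of 2.82e-05 in limma, and the rise on withdrawal was 2.93 ± 0.14 with an adjusted p of 2.86e-05. Withdrawal and control differed by -0.36 with a 95% interval from -0.72 to -0.0055 and were not called (adjusted p = 0.0936 in limma). The spread between the control arrays, an SD of 0.30, was larger than that of the treated groups, and without the second control array the difference was -0.58 and passed (adjusted p = 0.00997). It also passed in 5 other settings: with an intensity trend in the spread (adjusted p = 0.0200), without the dimmest 40% of genes (0.0496), with the mean of probe sets per gene (0.0300), with poly-A spikes (0.0142) and with hybridization spikes (1.61e-07). The lack of a call for Ocln between withdrawal and control therefore depends on the setting.

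F11r, which encodes the junctional adhesion molecule JAM-A, an immunoglobulin-type protein that helps place polarity proteins at the junction, read 11.11 and 11.10 in control, 10.69 and 10.72 under TGF-β and 11.63 and 11.65 after withdrawal. The order of the groups was TGF-β, control and withdrawal from low to high, with no overlap. Its difference was -0.40 ± 0.048 (SE) under TGF-β, and it rose by 0.93 ± 0.048 on withdrawal, which left it 0.53 ± 0.048 above control. The adjusted p was 0.00150, 3.36e-05 and 0.000267 in limma. With hybridization spike scaling the difference from control was 0.15 and did not pass (adjusted p = 0.283).

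Tjp1, which encodes the scaffold protein ZO-1, read 11.00 and 10.97 in control, 10.25 and 10.21 under TGF-β and 10.52 and 10.50 after withdrawal. The groups did not overlap, and the withdrawal arrays lay between the other groups, nearer to TGF-β. The difference was -0.75 ± 0.049 (SE) under TGF-β, 0.28 ± 0.049 on withdrawal against TGF-β and -0.47 ± 0.049 between withdrawal and control, with adjusted p of 0.000126, 0.00482 and 0.000476 in limma. The rise on withdrawal was 0.062 and did not pass with hybridization spike scaling (adjusted p = 0.695). In RNA of a whole culture, fewer cells that express a gene and less RNA per cell cannot be told apart, for Tjp1 as for the other genes.

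**Figure D2:**
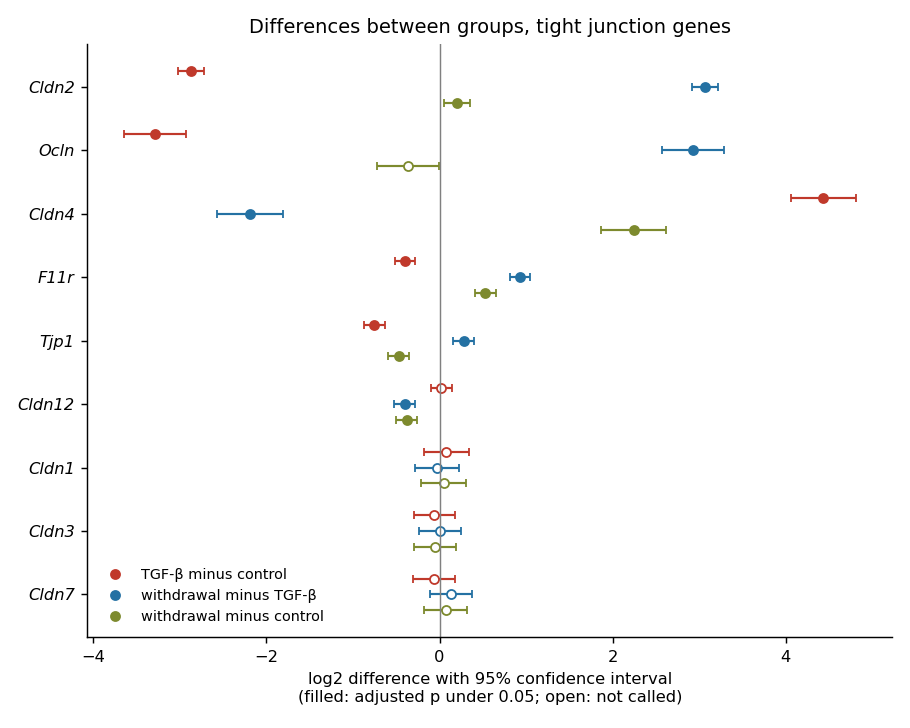
Log2 differences of the 9 genes in the 3 comparisons, as points with 95% confidence intervals of the limma fit (filled where the adjusted p was under 0.05). Cldn4 lies at 4.43 for TGF-β minus control, opposite to Cldn2 at -2.87 and Ocln at -3.29, while the intervals of Cldn1, Cldn3 and Cldn7 hold 0 in all 3 comparisons.

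Other probe sets were available for 6 of the 9 genes and were tested in a fit over all 34945 probe sets with 1 symbol. The second Cldn2 probe set differed by -2.49 under TGF-β and by 2.58 on withdrawal, and by 0.086 between withdrawal and control, without a call (adjusted p = 0.365 in limma). In that larger fit the small difference of the Cldn2 probe set used here, 0.20, also was not called (adjusted p = 0.0538). The second Ocln probe set had smaller differences of the same direction, -0.82 and 0.62, both called. That of Cldn12 also was called lower on withdrawal, by -0.42 from TGF-β and -0.31 from control. The second F11r probe set read 5.49 to 5.57 on all arrays and was not called in any comparison. Of 4 Cldn1 probe sets, a dim one with readings from 3.09 to 3.46 was called higher under TGF-β at 0.28 and lower on withdrawal at -0.31. Of 4 Cldn3 probe sets, one was called lower after withdrawal, by -0.27 from TGF-β and -0.40 from control. Cldn4, Cldn7 and Tjp1 had 1 probe set each, so their values have no such check.

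**Figure D3:**
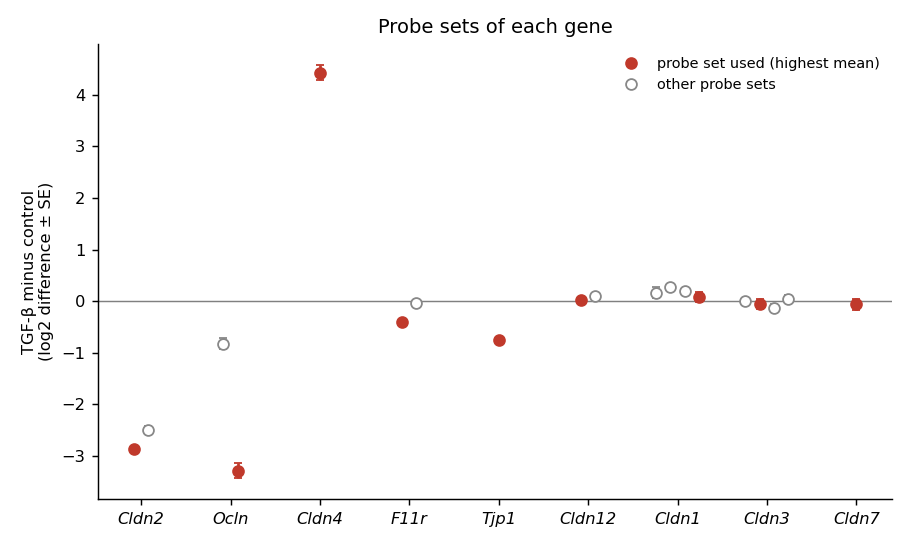
Log2 difference of TGF-β minus control with its SE for each probe set of the 9 genes (red, the probe set used; grey, the others). Both probe sets of Cldn2 and of Ocln lie below 0, at -2.87 and -2.49 and at -3.29 and -0.82, while only 1 of the 2 F11r probe sets differs from 0.

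The other tight junction genes were taken from 4 lists, of which 42 of 47 genes were measured with 1 symbol, and the remainder were not analysed here. Under TGF-β 6 of the 42 were called higher and 13 lower, against 15.0% and 17.5% of all genes, with a median difference of -0.058. On withdrawal against TGF-β 15 were called higher and 8 lower, against 21.8% and 22.1%, with a median of 0.032. Against control these were 9 and 11, against 21.7% and 23.6%, with a median of -0.035, shares near the background. On withdrawal against TGF-β fewer of the 42 were called lower without the second withdrawal array, and against control fewer without the first control array. Over all genes fewer were called lower in these fits too. Of the 42 genes, 15 were called in no comparison. The share of all genes called in no comparison was not computed, so this count has no background beside it.

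None of the other claudins exceeded 6.73 on any array. The 14 measured read between 3.06 and 6.73, and 2 were called higher and 0 lower under TGF-β, against 15.0% and 17.5% of all genes. On withdrawal against TGF-β 0 and 2 were, against 21.8% and 22.1%, and for withdrawal against control 0 and 2, against 21.7% and 23.6%. Cldn23 and Cldn15 were those called under TGF-β, at 0.79 and 0.21, and both were lower again on withdrawal, by -0.62 and -0.25. In the fit over all probe sets Cldn15 was not called under TGF-β (adjusted p = 0.0651 in limma). Cldn10 and Cldn16 were lower after withdrawal than in control, by -0.53 and -0.39. All 4 read below the array medians on every array, at levels not shown to be above background. These 4 fall outside the rule for named genes and were chosen after their values were seen.

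Over the 10 other membrane genes, 2 were called higher and 4 lower under TGF-β, against 15.0% and 17.5% of all genes. On withdrawal against TGF-β 4 and 0 were, against 21.8% and 22.1%, and for withdrawal against control 3 and 3, against 21.7% and 23.6%. Those named by the rule were Marveld2, Lsr, Ildr2 and Cxadr, and all 4 fell under TGF-β. Marveld2, which encodes tricellulin, a protein of the contacts where several cells meet, read 6.30 and 5.82 in control, 4.13 and 4.16 under TGF-β and 4.91 and 5.11 after withdrawal. Its differences were -1.91 ± 0.16 (SE) under TGF-β, 0.86 on withdrawal against TGF-β and -1.05 between withdrawal and control. The TGF-β and withdrawal readings of Marveld2 lay below the array medians, at levels not shown to be above background. These differences therefore describe readings, and no other probe set was available as a check. Lsr, which encodes angulin-1, the protein that recruits tricellulin, read 10.21 and 10.15 in control, 7.76 and 7.96 under TGF-β and 9.10 and 9.10 after withdrawal. In the same order its differences were -2.32 ± 0.078, 1.24 and -1.08. Ildr2, which encodes angulin-3, followed at -1.46 ± 0.054, 1.01 and -0.45. Another Ildr2 probe set was called lower after withdrawal than in control, at -0.49. A dimmer one was not, at -0.030 (adjusted p = 0.771 in limma). Ildr1, which encodes angulin-2 and is outside the rule, read 3.09 to 3.46 on all arrays and was not called. In both Lsr and Marveld2 the withdrawal arrays lay between control and TGF-β with no overlap, and the adjusted p of the 3 differences of Marveld2, Lsr and Ildr2 was at most 0.00647 in limma.

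Cxadr, which encodes the coxsackie and adenovirus receptor, differed by -1.43 ± 0.059 (SE) under TGF-β and by 1.94 on withdrawal, to 0.51 above control, the same order of groups as F11r. The difference of Cxadr from control was 0.14 and not called with hybridization spike scaling (adjusted p = 0.339). Epcam, which encodes a surface protein that binds claudin-7, was not called under TGF-β at 0.19, and its dimmer probe set was called lower there at -0.43, and the 2 probe sets differed in sign on withdrawal too, at -0.27 and 0.26, both called.

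The plaque proteins join the strands to the cytoskeleton and to signalling. Of 17 measured, 2 were called higher and 9 lower under TGF-β, against 15.0% and 17.5% of all genes, with a median of -0.41. On withdrawal against TGF-β 11 and 5 were, against 21.8% and 22.1%, with a median of 0.40, and for withdrawal against control 6 and 6, against 21.7% and 23.6%, with a median of -0.076. Cgn, which encodes the actin-binding junction protein cingulin, differed by -1.31 ± 0.16 (SE) under TGF-β, 0.74 on withdrawal and -0.58 between withdrawal and control. The last call of Cgn was lost without any one array of either group compared (adjusted p = 0.0870 to 0.119), and its rise on withdrawal was lost without either withdrawal array (adjusted p = 0.0623 and 0.0502). A second, dimmer Cgn probe set was called lower on withdrawal against TGF-β, at -0.30. Patj, which encodes a multi-PDZ scaffold of the Crumbs polarity complex, differed by -1.18 ± 0.058, 0.90 and -0.28. That last call was lost without the first control array (-0.25). It was also lost with the mean of probe sets per gene (-0.12, adjusted p = 0.140 in limma). The other Patj probe sets, all dimmer, were not called for withdrawal against control. Magi3, which encodes a membrane-associated guanylate kinase, differed by -0.86 ± 0.053 under TGF-β and by 1.04 on withdrawal, and its 0.19 against control lost its call without any one array other than the first withdrawal array (adjusted p = 0.0532 to 0.116). Wnk4, which encodes a kinase that phosphorylates claudins, differed by -0.94 ± 0.10 under TGF-β and by 1.70 on withdrawal, to 0.76 above control. These 4 genes were called in the limma test under TGF-β with adjusted p from 4.22e-05 to 0.00155. Under TGF-β Wnk4 read 4.88 and 5.18 and Patj 5.66 and 5.74. These readings lay below the array medians, at levels not shown to be above background. No other probe set of Wnk4 was available as a check.

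The other 4 plaque genes that the rule named had their larger differences at withdrawal. Mpdz, which encodes the multi-PDZ protein MUPP1, read 7.13 and 7.07 in control, 7.31 and 7.23 under TGF-β and 6.09 and 6.18 after withdrawal, a difference of -1.13 ± 0.061 (SE) from TGF-β and -0.96 from control. Ybx3, which encodes the ZO-1-binding transcription factor ZONAB, was at 12.44 and 12.38 in control, 12.32 and 12.26 under TGF-β and 11.31 and 11.22 after withdrawal, which was -1.02 ± 0.058 from TGF-β and -1.14 from control. Amot, which encodes angiomotin, a scaffold of the junction and of the YAP pathway, rose on withdrawal by 1.13 ± 0.052 and stood 1.22 above control. Its relative Amotl1 went the other way, 0.64 ± 0.066 higher under TGF-β, with -1.39 on withdrawal and -0.75 from control; the first call was lost with poly-A spikes (0.38, adjusted p = 0.0583). Under TGF-β the differences of Mpdz, Ybx3 and Amot were 0.17, -0.12 and 0.088, with adjusted p of 0.0916, 0.187 and 0.273 in limma. Mpdz passed there without the dimmest 40% of genes (adjusted p = 0.0356) and Ybx3 with an intensity trend in the spread (adjusted p = 0.0109). The withdrawal calls of these 4 genes had adjusted p of at most 0.000238 and were kept in all alternative settings that measured the gene. The other 2 Amot probe sets, both dimmer, were not called in any comparison.

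**Figure D4:**
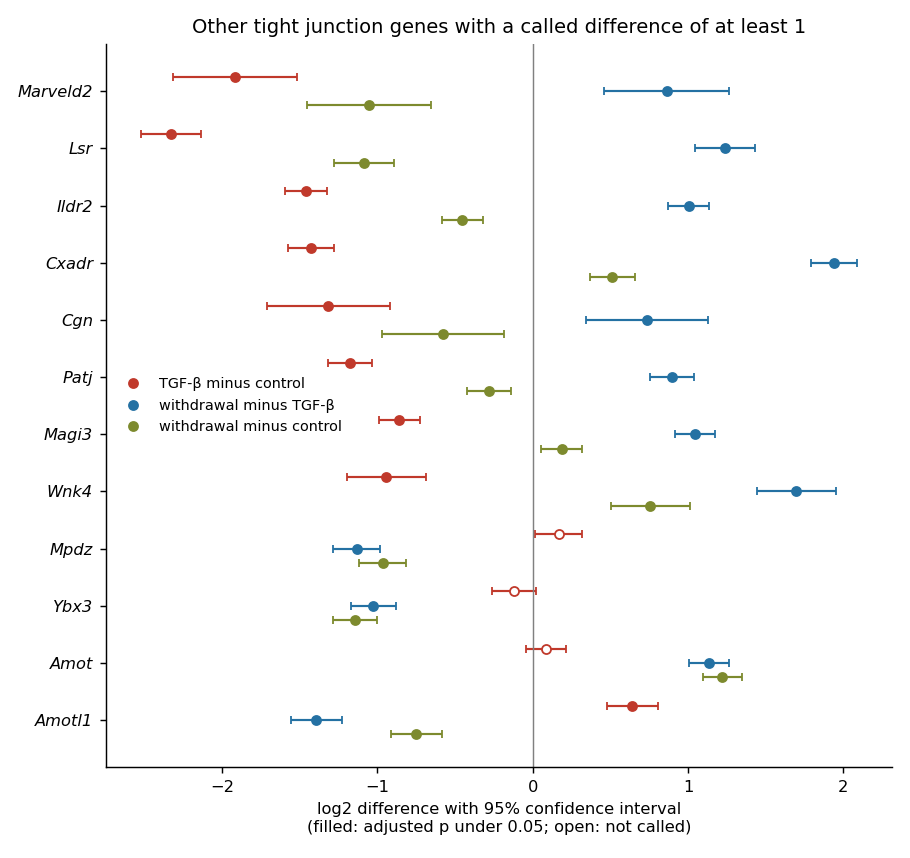
Log2 differences with 95% confidence intervals for the 12 other tight junction genes called with a difference of at least 1 in at least 1 comparison (filled where the adjusted p was under 0.05). From Marveld2 to Wnk4 the differences of TGF-β minus control lie below 0 and those of withdrawal minus TGF-β above 0, while Mpdz, Ybx3 and Amot are open for TGF-β.

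Similar patterns were sought among the 18193 genes after clone and predicted gene names were left out. The patterns closest to Ocln on the 6 arrays, after subtraction of each gene's control mean, were those of Sel1l3, Sec16b, which encodes a protein of endoplasmic reticulum exit sites, and Rbm47, which encodes an RNA-binding protein. Their root mean square differences from Ocln were 0.216, 0.218 and 0.247 on the log2 scale. Sel1l3 differed by -3.06 under TGF-β and 2.92 on withdrawal, Sec16b by -3.10 and 2.60, and Rbm47 by -3.61 and 3.29. The patterns closest to Cldn4 were those of Fstl1, which encodes a secreted glycoprotein, Bnc2, which encodes a zinc finger protein, and Prss23, which encodes a serine protease, at 0.378, 0.419 and 0.480. Fstl1 differed by 4.39 under TGF-β and stood 2.84 above control after withdrawal, Bnc2 by 4.47 and 1.83, and Prss23 by 3.64 and 2.36. With 3 groups of 2 arrays, likeness of this kind describes the group means of these genes. The TGF-β readings of Sel1l3, Sec16b and Rbm47, from 4.80 to 5.69, lay below the array medians, at levels not shown to be above background. The same holds for the control readings of Bnc2, 4.29 and 4.95.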

How the data were processed

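RNA of 6 NMuMG samples, 2 per group, was amplified and biotin-labelled with a 3' IVT Express kit, per the labels' protocols, so signal comes mostly from 3' ends. Values were used as deposited: the authors' log2 expression for every probe set, from RMA according to the submitters' processing notes. Its software and version, and which arrays were normalised as one batch, were not given in the sources used here. Of 45101 probe sets, 34945 carried 1 gene symbol in the platform annotation, 932 several and 9160 none, and 64 were controls; 0 symbols were updated. Each of the 18193 genes took its probe set with the highest mean.

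One limma 3.58.1 model (R 4.3.3) was fitted to all genes and 6 arrays without covariates (3 residual and 2.86 prior degrees of freedom), each comparison two-sided with Benjamini-Hochberg adjustment at 0.05. The median SE of a difference was 0.0701. The fit was tested on simulated data. Symbols were matched by text; promoters came from RefSeq (GRCm38.p6), where all 9 genes had a window. Tables and figures used Python 3.11.15, pandas 2.3.3 and matplotlib 3.10.9. Groups come from sample titles. Named genes are the 9 members, the other tight junction genes called with an absolute difference of at least 1, the markers, and the 3 nearest patterns to Ocln and to Cldn4. Members, lists, tests and the 16 alternative settings were chosen with earlier results of these data known.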

Additional observations from a re-analysis of the deposited data

How the results depend on the processing

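Under TGF-β 1 member was called higher in all 16 alternatives, and 4 lower in all but the one without probe sets ending in x, s or a, which does not measure Tjp1 and called 3. With poly-A spike scaling 1 member was called lower on withdrawal against TGF-β, in place of 2, beside 1624 of all 18193 genes, in place of 4023. With hybridization spike scaling 1 member was called higher and 6 lower for withdrawal against control, in place of 3 and 2. Over all genes 1655 were called higher and 12634 lower there, in place of 3943 and 4292. Without probe sets ending in x, s or a, which leaves Tjp1 and Cldn3 unmeasured, 1 member was called lower for withdrawal against control, beside 3576 of 16591 genes. Of the other tight junction genes, 3 were called higher under TGF-β with poly-A spikes, in place of 6, beside 903 of all genes, in place of 2726. On withdrawal against TGF-β 5 of these other genes were called lower without probe sets ending in x, s or a, 4 with poly-A spikes and 15 with hybridization spikes, in place of 8. Over all genes the counts were 3381 of 16591, 1624 of 18193 and 7772 of 18193, in place of 4023. For withdrawal against control 4 of the other tight junction genes were called higher with poly-A spikes and 2 with hybridization spikes, in place of 9, and 30 lower with the latter, in place of 11. Over all genes 2136 and 1655 were called higher, in place of 3943, and 12634 of 18193 lower, in place of 4292. The 30 lower of 42 were thus near the share over all genes. With hybridization spikes the withdrawal differences from control of Cldn1 (-0.33), Cldn2 (-0.18), Cldn7 (-0.31) and Magi3 (-0.19) turned sign, with a call before or after. This scaling shifts all genes of an array by the same amount, and the median over all genes went from -0.042 to -0.42 in this comparison. Why the spike readings differed between arrays was not tested. Differences of Cldn1, Cldn3, Cldn7, Cldn12, Amot and Mpdz that were called neither before nor after also changed sign in some settings. Leaving out each array in turn gave 4 to 8 called lower on withdrawal against TGF-β and 7 to 11 called lower against control among the other genes, and 2 to 3 called higher and 2 to 3 lower against control among the members. With the replicate number as a block, the members' calls changed only for Cldn2, withdrawal against control (adjusted p = 0.0667 in limma). Arrays with the same number did not deviate together (r over genes of -0.0038, -0.016 and 0.0067), so this paired fit rests on a shared number only. With 2 arrays a group, their number limits every value, and dim genes such as Cldn1 and Cldn7 cannot be separated from background.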
